A study of Mus musculus with 6 samples.

Results

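The 10 genes described here belong to the Rb and p53 pathways, which the T antigen of the C3-T tumour model disables. They were found in the deposited table of 52325 mouse genes by matching Ensembl IDs to symbols, and all 10 were present and passed the filter on low counts, among 20684 genes tested. They are the pocket protein genes Rb1, Rbl1 and Rbl2, the p53 gene Trp53 with its ligase Mdm2 and its targets Cdkn1a and Ccng1, the INK4 genes Cdkn2a and Cdkn2b, and the cyclin D1 gene Ccnd1. RNA was sequenced from cells of breast tumours of C57BL/6 mice that carry C3-T and an Elf5-GFP reporter, in which green fluorescent protein marks cells expressing the luminal transcription factor Elf5. There were 2 libraries of Elf5-positive and 4 of Elf5-negative cells, sorted by GFP after gating with antibodies to CD45, CD31 and TER119. Every library comes from mice with the transgene, so there is no group without it. Which cells of each library express T antigen was not examined, and the gate takes away neither fibroblasts nor pericytes. The age of the mice, and whether libraries came from separate mice, are not in the labels, and a p-value here reflects no more than how far these 6 libraries vary.

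The labels do not spell out C3-T, which is taken here as the mouse model in which regulatory sequence of the rat prostatein gene drives simian virus T antigen, also in mammary epithelium. Large T antigen binds the pocket proteins, which otherwise hold E2F transcription factors in check, and it binds p53, which otherwise activates genes of cell cycle arrest and cell death. Upstream of both, D cyclins with their kinases phosphorylate the pocket proteins, INK4 inhibitors block those kinases, and the Arf product of Cdkn2a restrains Mdm2, the ligase that marks p53 for degradation. Sequence of the transgene was not analysed here.

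Library totals were 45145621 and 49563376 estimated counts in the Elf5-positive libraries, and ran from 9106660 (library 4) to 53694884 in the Elf5-negative ones. Elf5 itself was at 77.7 and 137 CPM, a count relative to the library total (here always scaled with the TMM factors of edgeR), in the Elf5-positive libraries, against 6.93 to 24.7 CPM in the Elf5-negative ones. Summed levels of 14 fibroblast markers were 2248 and 2181 CPM in the Elf5-positive libraries, against 22168 to 60257 CPM in the Elf5-negative libraries, and 12 of the 14 passed the test as lower. Summed levels of 18 epithelial markers were 9780 and 6687 CPM, against 2462 to 4172 CPM, and 11 passed as higher, with Epcam, the defining one, at 1372 and 1483 CPM, against 382 to 703 CPM. Leukocyte markers summed to 181 and 99.7 CPM, against 106 to 395 CPM, and CD45 itself (Ptprc) was at 3.24 and 6.02 CPM, against 3.97 to 14.6 CPM. In these bulk samples fewer cells of a type and less RNA per cell cannot be told apart.

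None of the 10 genes passed the comparison of Elf5-positive with Elf5-negative libraries as higher, and none as lower (Benjamini-Hochberg adjusted p below 0.05 over all genes tested, from the quasi-likelihood test of edgeR). Over all genes tested 0.585% passed as higher and 3.79% as lower. Ccng1 was the only member at an unadjusted p below 0.05 in edgeR, 1 of 10 where 16.9% of all genes tested were. It passed as lower in DESeq2, as did 8.52% of all genes tested, and in limma-voom, as did 4.32%, and neither called another member. Log2 fold changes, Elf5-positive over Elf5-negative, were above 0 for 3 members (Rb1, Rbl1 and Trp53) and below 0 for 7, with a median of -0.53 beside 0.05 for all genes tested. Ccng1 and Mdm2 had no overlap between the groups, both on the lower side, which makes 2 of 10. Of all genes tested 14.8% were lower with no overlap, and 25.7% had no overlap in either direction.

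**Figure D1:**
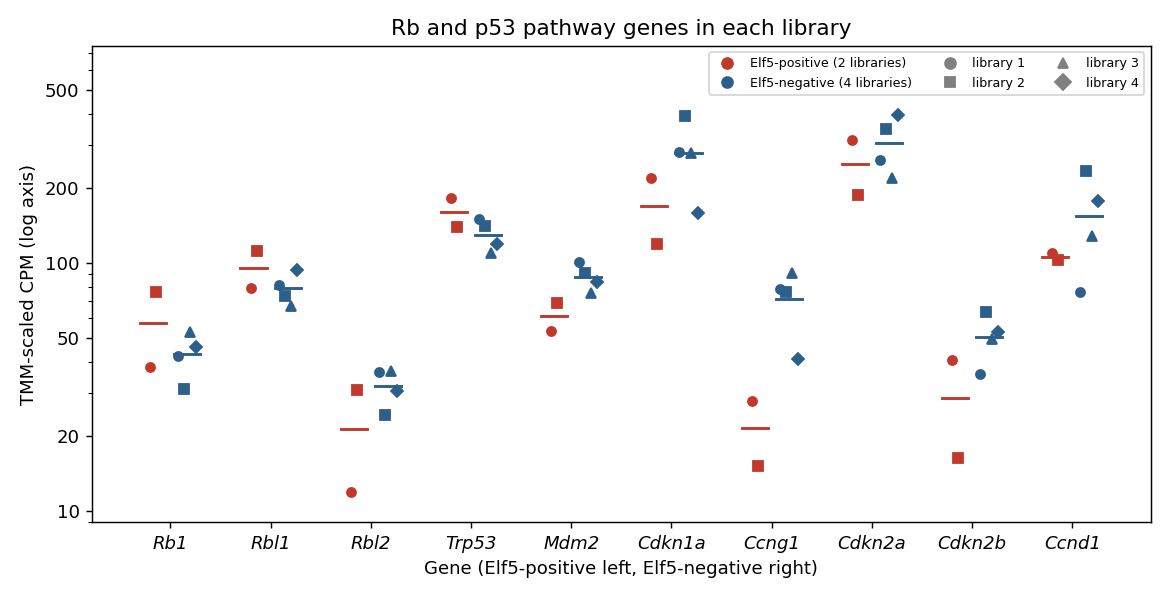
TMM-scaled CPM (log axis) of each of the 10 genes, with Elf5-positive libraries on the left and Elf5-negative libraries on the right of each pair, 1 symbol per library and a line at the group mean. Ccng1 lies at 15.2 and 27.8 CPM in Elf5-positive libraries, below the lowest Elf5-negative library at 40.8 CPM.

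Per kilobase of annotated exon sequence, Cdkn2a had the highest level of the 10 genes in every library. It was at 267 and 160.2 CPM per kilobase in the Elf5-positive libraries and at 188 to 337 CPM per kilobase in the Elf5-negative ones. Its mean per kilobase lay above that of 98.8% of the genes tested in Elf5-positive and 99.0% in Elf5-negative libraries. Cdkn1a came second, with means of 47.8 ± 20.3 CPM per kilobase in Elf5-positive (SD, n = 2) and 77.8 ± 26.8 in Elf5-negative libraries (SD, n = 4). Trp53 stood at 39.9 ± 7.48 and 32.1 ± 4.69 CPM per kilobase in Elf5-positive and Elf5-negative libraries. Ccnd1 and Cdkn2b had 22.5 ± 0.933 and 20.5 ± 12.3 CPM per kilobase in Elf5-positive libraries, and 32.7 ± 14.3 and 36.1 ± 8.21 in Elf5-negative libraries. Rbl1, Mdm2 and Ccng1 held 15.99 ± 3.85, 11.99 ± 2.19 and 6.13 ± 2.55 CPM per kilobase in Elf5-positive libraries, and 13.2 ± 1.93, 17.3 ± 2.14 and 20.4 ± 6.16 in Elf5-negative libraries. Rb1 was at 9.49 ± 4.47 in Elf5-positive and 7.15 ± 1.501 CPM per kilobase in Elf5-negative libraries, and Rbl2 was the lowest of the 10 by its means, 2.82 ± 1.76 and 4.22 ± 0.761 CPM per kilobase. In the order of Elf5-positive means, 5 pairs of neighbours differed by less than the larger of their SDs, namely Cdkn1a and Trp53, Ccnd1 and Cdkn2b, Cdkn2b and Rbl1, Mdm2 and Rb1, and Rb1 and Ccng1. In the order of Elf5-negative means this held for 3 pairs, Cdkn2b and Ccnd1, Ccnd1 and Trp53, and Ccng1 and Mdm2. The exon length counts every annotated isoform, so these levels are approximate.

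The 3 pocket protein genes did not differ beyond the spread between libraries. Rb1 (ENSMUSG00000022105.6, chromosome 14, 73183673 to 73325822, GRCm38), which encodes the retinoblastoma protein, was at 38.0 and 76.1 CPM in Elf5-positive libraries 1 and 2, against 42.2, 31.1, 52.7 and 46.0 CPM in Elf5-negative libraries 1 to 4. Elf5-positive library 2 was the highest of the 6 and library 1 lay inside the Elf5-negative range, so the Elf5-positive values differ 2.00-fold between themselves. The log2 fold change of Rb1 was 0.41 (SE 0.33, adjusted p = 0.625 in edgeR), with a 95% interval from -0.35 to 1.17, and -0.18 without Elf5-positive library 2.

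Rbl1 (ENSMUSG00000027641.13, chromosome 2, 157145893 to 157204534) encodes p107, a pocket protein whose gene is itself an E2F target. It was at 79.5 and 112 CPM in the Elf5-positive libraries, against 81.4, 73.5, 67.0 and 93.9 CPM in the Elf5-negative ones. The groups overlapped, since Elf5-positive library 1 lay below Elf5-negative libraries 1 and 4. For Rbl1 the log2 fold change was 0.28 (SE 0.24, adjusted p = 0.649 in edgeR), with a 95% interval from -0.27 to 0.83. The 250 bases before the Rbl1 start are shown because they hold an 8-base E2F core match, in capitals (RefSeq, GRCm38.p6, chr2:157204535-157204784, minus strand).
Rbl1: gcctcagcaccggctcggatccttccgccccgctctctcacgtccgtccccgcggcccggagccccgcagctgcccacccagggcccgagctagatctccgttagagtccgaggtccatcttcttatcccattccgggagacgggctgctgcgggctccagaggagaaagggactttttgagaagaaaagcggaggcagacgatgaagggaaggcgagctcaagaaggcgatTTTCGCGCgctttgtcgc
The letters searched were TTTCCCGC, TTTCGCGC, TTTGCCGC and TTTGGCGC on either strand, and 1.86% of 32851 promoter windows of this length held one, as did that of the first Cdkn2a start.

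Rbl2 (ENSMUSG00000031666.15, chromosome 8, 91070057 to 91123844) encodes p130, the pocket protein of resting cells. It was at 11.9 and 30.7 CPM in the Elf5-positive libraries, against 36.3, 24.5, 36.6 and 30.3 CPM in the Elf5-negative ones. Elf5-positive library 1 was the lowest of the 6, while Elf5-positive library 2 lay among the Elf5-negative libraries. For Rbl2 the log2 fold change was -0.58 (SE 0.39, adjusted p = 0.549 in edgeR), with a 95% interval from -1.49 to 0.33. Exons of Rb1 share bases with Lpar6 and Rcbtb2, and exons of Rbl2 with Aktip, on the opposite strand, as do exons of Ccnd1 and Cdkn1a with other genes. Whether the counting used strand is not given in the sources used here, so reads of such overlaps may be shared.

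Of the p53 group, Ccng1 had the largest difference and Trp53 itself the smallest. Trp53 (ENSMUSG00000059552.13, chromosome 11, 69580359 to 69591873) was at 183 and 139.8 CPM in the Elf5-positive libraries, against 151, 140.5, 109.7 and 119 CPM in the Elf5-negative ones. The groups overlapped, and the log2 fold change of 0.31 (SE 0.24, adjusted p = 0.602 in edgeR) had a 95% interval from -0.23 to 0.86. RNA says nothing here of the amount of p53 protein, which T antigen stabilises in cells that express it. The processed pseudogene Trp53-ps was at 0.00968 CPM in Elf5-positive and 0.0158 CPM in Elf5-negative libraries on average.

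Ccng1 (ENSMUSG00000020326.7, chromosome 11, 40748552 to 40755311) encodes cyclin G1, a p53 target that feeds back on Mdm2. It was at 27.8 and 15.2 CPM in the Elf5-positive libraries, against 78.3, 76.7, 91.3 and 40.8 CPM in the Elf5-negative ones. Every Elf5-positive value lay below every Elf5-negative value, and the means were 21.5 ± 8.95 CPM (SD, n = 2) in Elf5-positive and 71.8 ± 21.6 CPM (SD, n = 4) in Elf5-negative libraries. Its log2 fold change was -1.74 (SE 0.40, 95% interval from -2.67 to -0.81), just outside the threshold in edgeR (adjusted p = 0.0550). The adjusted p was 0.00152 in DESeq2 and 0.0356 in limma-voom, and 0.0249 in edgeR without Elf5-negative library 4, but 0.204 without Elf5-positive library 2. Without Elf5-negative libraries 1 and 2, where skeletal muscle markers summed to 252 and 47.5 CPM against at most 12.4 CPM in the other 4, the log2 fold change was -1.63 and the adjusted p 0.305 in edgeR. In that smaller fit 0 of all genes tested passed as higher and 75 as lower, beside 121 and 783 with all 6 libraries.

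Mdm2 (ENSMUSG00000020184.15, chromosome 10, 117688875 to 117710758) was at 53.1 and 68.8 CPM in the Elf5-positive libraries, against 101, 91.3, 75.4 and 83.9 CPM in the Elf5-negative ones. The groups did not overlap, but the gap between the nearest values, 68.8 and 75.4 CPM, was smaller than the spread within either group. On the log2 scale Mdm2 differed by -0.53 (SE 0.23, adjusted p = 0.296 in edgeR), and its 95% interval reached 0.00068 at the upper end. Without Elf5-positive library 1 the log2 fold change was -0.35.

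Cdkn1a (ENSMUSG00000023067.13, chromosome 17, 29090976 to 29100727), which encodes the kinase inhibitor p21, was at 221 and 119 CPM in the Elf5-positive libraries. It was at 279, 391.6, 277 and 159 CPM in the Elf5-negative ones, so Elf5-negative library 4 lay between the Elf5-positive libraries. Cdkn1a differed by -0.70 on the log2 scale (SE 0.41, edgeR adjusted p = 0.468), with a 95% interval from -1.65 to 0.24. The titles give a number and the code T2, neither of them defined, in common to Elf5-positive library 1 with Elf5-negative library 2, and to Elf5-positive library 2 with Elf5-negative library 4. In each of these pairs the Elf5-positive library lay below its partner for Cdkn1a, by 0.82 and 0.41 on the log2(CPM + 1) scale. The same held for Mdm2, by 0.77 and 0.28, and for Ccng1, by 1.43 and 1.37. Cdkn2a, Cdkn2b and Ccnd1 were also lower in each of these pairs, so this was not particular to the p53 targets.

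The 250 bases before the starts of Cdkn1a, Ccng1 and Mdm2 are shown because these 3 members are p53 targets. Capitals mark matches to the p53 decamer, the repeated unit of the p53 response element. They are from RefSeq, GRCm38.p6, at chr17:29090729-29090978 on the plus strand for the first of 2 Cdkn1a starts, chr11:40755287-40755536 on the minus strand for Ccng1, and chr10:117710759-117711008 on the minus strand for Mdm2.
Cdkn1a: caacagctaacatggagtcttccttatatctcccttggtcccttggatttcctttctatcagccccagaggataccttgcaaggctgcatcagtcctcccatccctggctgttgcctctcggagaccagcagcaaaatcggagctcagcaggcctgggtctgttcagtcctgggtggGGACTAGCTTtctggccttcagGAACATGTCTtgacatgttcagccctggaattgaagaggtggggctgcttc
Ccng1: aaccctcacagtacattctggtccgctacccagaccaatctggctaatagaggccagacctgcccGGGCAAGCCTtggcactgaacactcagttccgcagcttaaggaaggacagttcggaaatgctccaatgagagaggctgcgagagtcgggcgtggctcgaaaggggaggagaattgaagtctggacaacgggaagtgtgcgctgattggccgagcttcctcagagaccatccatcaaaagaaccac
Mdm2: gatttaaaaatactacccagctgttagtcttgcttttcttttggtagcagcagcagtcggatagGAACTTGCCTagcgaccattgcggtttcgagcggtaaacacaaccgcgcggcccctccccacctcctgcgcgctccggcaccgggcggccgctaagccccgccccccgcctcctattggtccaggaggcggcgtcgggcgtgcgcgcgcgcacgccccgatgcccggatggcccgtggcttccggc
A p53 decamer stood in 7.13% of all promoter windows, and 2 decamers with a spacer of at most 13 bases in 0.0639%. The window of the first Cdkn1a start holds such a double site, and that of the second start holds no decamer. The Ccng1 and Mdm2 windows hold 1 decamer each, and so does that of Trp53. Only exact matches are in capitals, so a near match such as tgacatgttc, directly after GAACATGTCT in Cdkn1a, is not. A match is a description of the letters only.

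The INK4 inhibitors and cyclin D1 lay on the lower side in the Elf5-positive libraries, with wide overlap. Cdkn2a (ENSMUSG00000044303.6, chromosome 4, 89274471 to 89294653) encodes p16Ink4a and, in another reading frame, p19Arf, which a count per gene does not separate. It was at 313 and 188 CPM in the Elf5-positive libraries, against 259, 348, 220.0 and 395 CPM in the Elf5-negative ones. Elf5-positive library 1 lay inside the Elf5-negative range and Elf5-positive library 2 below it. Between the groups the log2 fold change was -0.29 (SE 0.34, adjusted p = 0.755 in edgeR), with a 95% interval from -1.07 to 0.49, and 0.037 without Elf5-positive library 2.

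Cdkn2b (ENSMUSG00000073802.4, chromosome 4, 89306299 to 89311039), next to Cdkn2a, encodes the related inhibitor p15Ink4b. It was at 40.6 and 16.4 CPM in the Elf5-positive libraries, against 35.6, 63.3, 49.3 and 52.6 CPM in the Elf5-negative ones. Elf5-positive library 1 lay above Elf5-negative library 1, so the groups overlapped. For Cdkn2b the log2 fold change was -0.82 (SE 0.40, adjusted p = 0.364 in edgeR), with a 95% interval from -1.74 to 0.10. The inhibitors differed between the pairs that share a title number and T2. Cdkn2a lay below its partner by 0.15 in the pair of Elf5-positive library 1 and by 1.07 in that of library 2 on the log2(CPM + 1) scale, and Cdkn2b by 0.63 and 1.62. Against the same-numbered T1 library, Elf5-positive library 1 was higher for Cdkn2a (313 against 259 CPM) and Cdkn2b (40.6 against 35.6 CPM). Elf5-positive library 2 was lower than its T1 library for Cdkn2a (188 against 220 CPM) and Cdkn2b (16.4 against 49.3 CPM).

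Ccnd1 (ENSMUSG00000070348.5, chromosome 7, 144929931 to 144939925) encodes cyclin D1, the partner of Cdk4 and Cdk6. It was at 109 and 103 CPM in the Elf5-positive libraries, against 76.6, 234, 128 and 177 CPM in the Elf5-negative ones. The Elf5-positive values differed 1.06-fold and the Elf5-negative ones 3.06-fold, with Elf5-negative library 1 below both Elf5-positive libraries. Ccnd1 differed by -0.54 on the log2 scale (SE 0.42, edgeR adjusted p = 0.61), with a 95% interval from -1.501 to 0.43. Within the pairs that share a title number and T2, Ccnd1 was lower by 1.09 and 0.78 on the log2(CPM + 1) scale. Against the same-numbered T1 libraries, Ccnd1 was higher in Elf5-positive library 1 (109 against 76.6 CPM) and lower in library 2 (103 against 128 CPM).

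Fold changes of all 10 genes depended on how the libraries were scaled. Scaled to 18 epithelial markers in place of TMM, all genes tested had a median log2 fold change of -1.43, beside 0.05 with TMM. Under this scaling 9 of the 10 genes passed as lower in edgeR, as did 56.6% of all genes tested. Rb1 did not pass and had a log2 fold change of -0.996. Rb1, Rbl1 and Trp53, above 0 with TMM, were below 0 with this scaling and with scaling to E2F targets. Relative to the shifted median of all genes, Rb1, Rbl1 and Trp53 lay above it and Ccng1, at -3.24, below it. A change of scaling shifts all genes by nearly the same amount, so a gene's place relative to that median hardly depends on it. Scaled to 26 E2F target genes, with a median of -0.43 for all genes, Ccng1 passed at -2.22 (adjusted p = 0.0295), where 6.33% of all genes tested passed as lower, and no other member did.

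**Figure D2:**
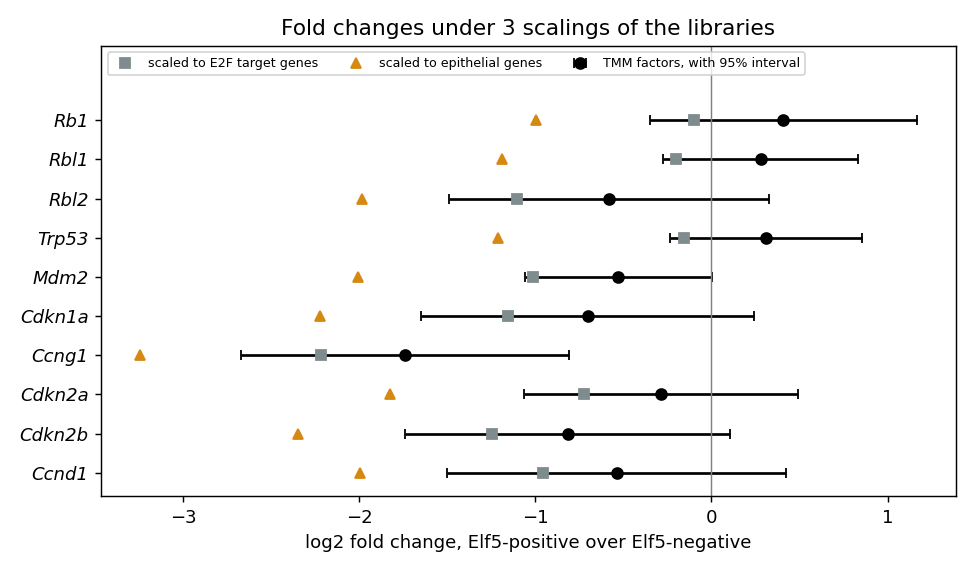
Log2 fold change, Elf5-positive over Elf5-negative, of each of the 10 genes with TMM factors (black, with the 95% interval), scaled to E2F target genes (grey squares) and scaled to epithelial genes (orange triangles). Of the TMM intervals only that of Ccng1 lies wholly below 0, and every gene lies below 0 when scaled to epithelial genes.

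With TMM factors, 1 of 28 other p53 target genes fell in edgeR, where 3.79% of all genes tested did, and none rose. At an unadjusted p below 0.05 were 6 of the 28, where 16.9% of all genes tested were. In DESeq2 2 fell, beside 8.52% of all genes tested, and in limma-voom 2 fell, beside 4.32%. The median log2 fold change of the 28 was -0.14. Scaled to epithelial genes, 25 of the 28 passed as lower, where 56.6% of all genes tested did, and their median was -1.62 beside -1.43 for all genes. The gene that fell was Zmat3, which encodes an RNA-binding protein of the p53 response. Zmat3 was at 4.75 and 6.52 CPM in the Elf5-positive libraries, against 19.9, 24.1, 23.2 and 12.96 CPM in the Elf5-negative ones, and its log2 fold change was -1.83 (SE 0.36, adjusted p = 0.0341 in edgeR). All Elf5-positive values of Zmat3 lay below all Elf5-negative values. Without Elf5-negative library 4 it passed (adjusted p = 0.0256 in edgeR), and without any 1 of the other 5 libraries it did not, with adjusted p from 0.0752 to 0.117. Without Elf5-negative libraries 1 and 2 its adjusted p was 0.270 in edgeR, in a fit where 75 of all genes tested passed as lower.

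Eda2r, a receptor of the tumour necrosis factor receptor family, was at 0.742 and 0.135 CPM in the Elf5-positive libraries, against 5.24, 4.98, 6.31 and 2.16 CPM in the Elf5-negative ones. It had the lowest log2 fold change of the list, -3.42 (SE 0.83, adjusted p = 0.0628 in edgeR), and passed in DESeq2 (3.18e-05) and limma-voom (0.0312). The death receptor gene Fas and the p53 cofactor gene Trp53inp1 had log2 fold changes of -1.10 and -1.04 and did not pass (adjusted p = 0.196 and 0.158 in edgeR). In both genes the groups did not overlap, as in 8 of the 28 targets, beside 25.7% of all genes tested.

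Of 11 regulators and relatives of p53 none passed in edgeR (2 at an unadjusted p below 0.05, beside 16.9% of all genes tested). In DESeq2 1 fell, beside 8.52% of all genes tested. Scaled to epithelial genes 6 of the 11 passed as lower, beside 56.6% of all genes tested. The gene that fell in DESeq2 was Trp63, whose product p63 marks basal epithelial cells, at 3.13 and 0.600 CPM in the Elf5-positive libraries, against 2.92, 12.8, 28.4 and 11.4 CPM in the Elf5-negative ones. The groups overlapped through Elf5-negative library 1, and the log2 fold change was -2.90 (SE 1.01, adjusted p = 0.185 in edgeR and 0.00786 in DESeq2). The 8 basal markers, a list that holds Trp63, summed to 1157 and 906 CPM in the Elf5-positive libraries, against 774 to 1073 CPM in the Elf5-negative ones, but 5 of the 8 had log2 fold changes below 0 and the median was -2.71. Of these Krt5 (-4.18) and Mylk (-3.35) fell, whereas the sum was mostly Krt14, Krt17 and Lgr6, with log2 fold changes of 0.52, 0.27 and 0.33 that did not pass. Trp73, encoding p73, was at 0.135 and 0.174 CPM, against 0.206 to 1.22 CPM in the Elf5-negative libraries. The checkpoint kinase genes Chek1 and Chek2 had log2 fold changes of 0.54 and 0.63 and did not pass (adjusted p = 0.307 and 0.393 in edgeR).

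On the Rb side, with TMM factors, E2F target genes lay on the higher side in the Elf5-positive libraries relative to all genes tested. Scaling to epithelial genes shifts all genes by nearly the same amount. It changes the sign of the E2F targets but is no separate support for their place among all genes. None of 26 passed in edgeR or limma-voom, and 1 rose in DESeq2, as did 2.11% of all genes tested. At an unadjusted p below 0.05 in edgeR were 6 of the 26, all higher. Of the 20684 genes tested 1075 were higher and 2423 lower at that threshold, 16.9% in either direction. All 26 had a log2 fold change above 0, where 53.3% of all genes tested did, with a range from 0.097 to 0.79 and a median of 0.46. Their summed levels were 5880 and 6471 CPM in the Elf5-positive libraries, against 3667, 4791, 4031 and 4684 CPM in the Elf5-negative ones, so the sums did not overlap. There was no overlap for 14 of the 26 genes, all of them higher. Of all genes tested 10.9% were higher with no overlap, and 25.7% had no overlap in either direction. Scaled to epithelial genes, their median was -1.04 beside -1.43 for all genes tested, and 16 passed as lower, beside 56.6% of all genes tested.

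The 4 E2F targets with the smallest p were Cdk1, the mitotic kinase, Mcm5 and Mcm7, subunits of the replicative helicase, and Ccna2, cyclin A2. Cdk1 was at 223 and 203 CPM in the Elf5-positive libraries, against 113, 156, 124 and 122 CPM in the Elf5-negative ones, and its log2 fold change was 0.73 (SE 0.22, adjusted p = 0.122 in edgeR and 0.0409 in DESeq2). Mcm5, Mcm7 and Ccna2 had log2 fold changes of 0.69, 0.79 and 0.79 (adjusted p = 0.179, 0.245 and 0.188 in edgeR). Scaled to epithelial genes, Cdk1, Mcm5, Mcm7 and Ccna2 lay at -0.75, -0.79, -0.64 and -0.68, above the median of all genes, and did not pass. Of the 10 E2F and DP factors none passed in edgeR, DESeq2 or limma-voom, with a median of 0.39. In edgeR 1 of them was at an unadjusted p below 0.05, beside 16.9% of all genes tested. The activators E2f1 and E2f2 had log2 fold changes of 0.52 and 0.77, and E2f5 and E2f8, repressors, of 0.59 and 0.49 (adjusted p from 0.253 to 0.446 in edgeR), all 4 below 0 but above the median of all genes when scaled to epithelial genes. Of 22 E2F target genes with a promoter window, 10 held the E2F core match, which is 45.5% beside 2.16% of 27025 genes.

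**Figure D3:**
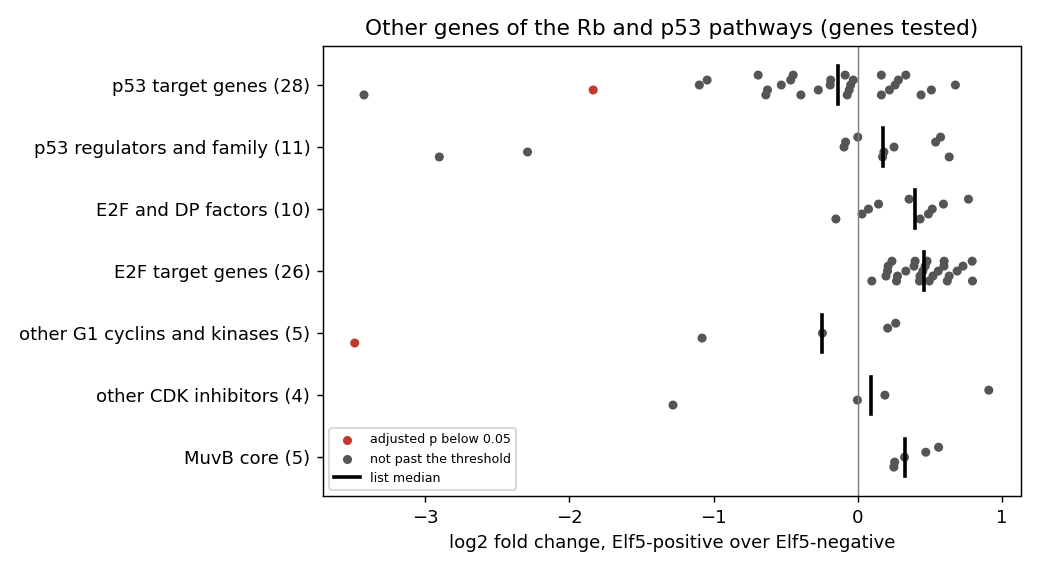
Log2 fold change, Elf5-positive over Elf5-negative, of each tested gene of 7 pathway lists, with the list median as a black line and genes past the threshold in red. All 26 E2F targets lie above 0 with TMM factors (all lists shift downwards when scaled to epithelial genes), and Zmat3 and Ccnd2 are the only genes past the threshold.

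Of the 5 other G1 cyclins and kinases, 1 fell in edgeR, beside 3.79% of all genes tested, and this was Ccnd2. It encodes cyclin D2 and was at 3.42 and 2.32 CPM in the Elf5-positive libraries, against 34.3, 30.6, 47.9 and 15.6 CPM in the Elf5-negative ones. On the log2 scale Ccnd2 differed by -3.49 (SE 0.51, adjusted p = 0.0137 in edgeR), and the groups did not overlap. It did not pass without Elf5-positive library 2 (adjusted p = 0.0598), without Elf5-negative library 1 (0.0505) or without Elf5-negative libraries 1 and 2 together (0.0977). Among the D cyclins, Ccnd1 and Ccnd2 had 95% intervals of the log2 fold change from -1.501 to 0.43 and from -4.67 to -2.30, which do not overlap, and the difference between the genes was not tested. Cdk6, Cdk2 and Cdk4 had log2 fold changes of -1.08, 0.26 and 0.21 and did not pass (adjusted p = 0.217, 0.644 and 0.753 in edgeR), and those of Cdk2 and Cdk4 were below 0 but above the median of all genes when scaled to epithelial genes.

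Of the 4 other inhibitors of cyclin-dependent kinases none passed in edgeR or limma-voom. In edgeR 1 was at an unadjusted p below 0.05, beside 16.9% of all genes tested, and 1 fell in DESeq2, beside 8.52%. Cdkn1c, encoding p57, was at 9.11 and 5.01 CPM in the Elf5-positive libraries, against 20.6, 20.4, 10.05 and 17.7 CPM in the Elf5-negative ones (log2 fold change -1.28, adjusted p = 0.155 in edgeR and 0.0353 in DESeq2). Cdkn1b, encoding p27, was at 110.3 and 459 CPM in the Elf5-positive libraries, against 87.9, 76.7, 111 and 333 CPM in the Elf5-negative ones, so its high values lie in the pair of Elf5-positive library 2 and Elf5-negative library 4 and not in 1 group. Cdkn2c and Cdkn2d, other INK4 genes, had log2 fold changes of -0.0033 and 0.19. Of the 5 MuvB core genes, whose products form a repressor complex with p107 or p130, none passed in edgeR, DESeq2 or limma-voom. In edgeR 0 of the 5 were at an unadjusted p below 0.05, beside 16.9% of all genes tested. Lin9, Lin37, Lin54 and Lin52 had log2 fold changes of 0.47, 0.56, 0.32 and 0.25, and when scaled to epithelial genes all 4 were below 0 but above the median of all genes, -1.43.

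Ccng1, Zmat3 and Ccnd2 were higher in the Elf5-negative libraries, whose fibroblast markers were also higher. Col3a1, a fibrillar collagen, was at 261 and 223 CPM in the Elf5-positive libraries, against 8876, 5289, 19805 and 7054 CPM in Elf5-negative libraries 1 to 4. Elf5-negative library 3 had the highest summed fibroblast markers, 60257 CPM, and the highest Ccng1 and Ccnd2 of the 6 libraries, at 91.3 and 47.9 CPM. Zmat3 was highest in Elf5-negative library 2, at 24.1 CPM, against 23.2 CPM in library 3. Elf5-negative libraries 2 and 4 had fibroblast sums of 22168 and 23286 CPM. There Ccng1 was at 76.7 and 40.8 CPM, Zmat3 at 24.1 and 12.96 CPM and Ccnd2 at 30.6 and 15.6 CPM. For Mdm2 library 3 was the lowest of the Elf5-negative libraries, at 75.4 CPM. Pericyte and smooth muscle markers summed to 128 and 117 CPM in the Elf5-positive libraries, against 1551, 1105, 1449 and 556 CPM in Elf5-negative libraries 1 to 4. Endothelial markers summed to 89.9 and 41.4 CPM, against 220, 159, 153 and 88.9 CPM. Elf5-negative library 4 was thus the lowest of its group in the pericyte and endothelial sums, as in Ccng1, Zmat3 and Ccnd2. The fibroblast sum was lowest in library 2, and library 4 also had the fewest counts, 9106660. The part of these cells in the differences was not tested.

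**Figure D4:**
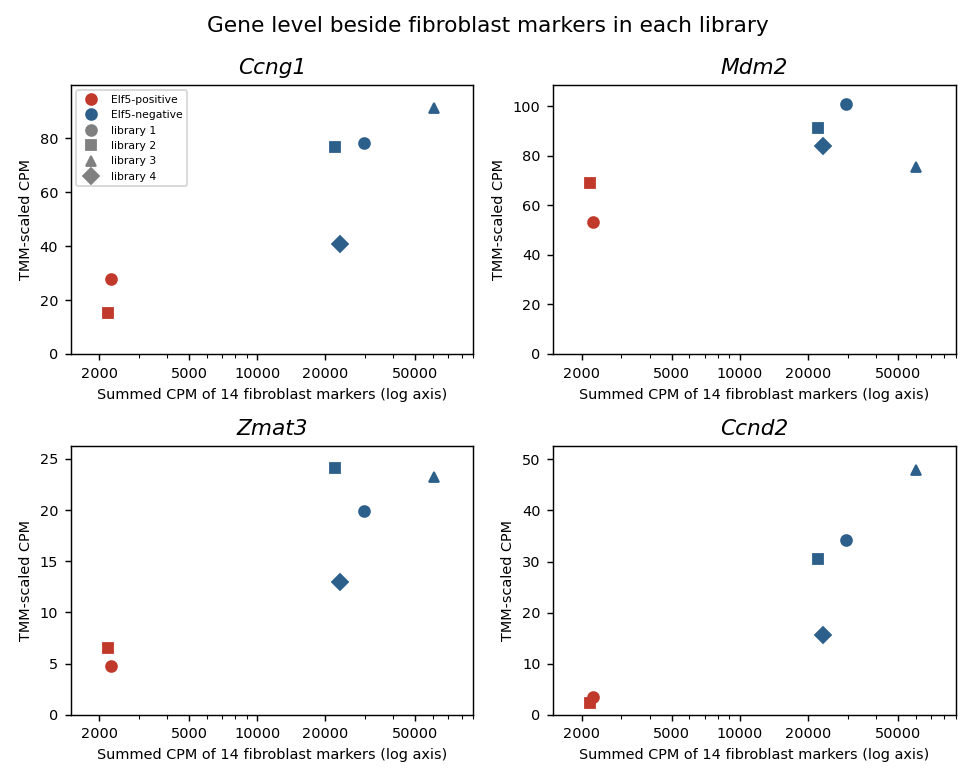
TMM-scaled CPM of Ccng1, Mdm2, Zmat3 and Ccnd2 (vertical, linear from 0) against the summed CPM of 14 fibroblast markers (horizontal, log axis) in each of the 6 libraries. The 2 Elf5-positive libraries lie at 2248 and 2181 CPM of markers at the left and the 4 Elf5-negative libraries between 22168 and 60257 CPM.

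Over the 6 libraries, the genes with the pattern most like that of each member were found among 12609 genes by the root mean square difference of log2(CPM + 1) after each gene's mean was taken away. Trp53 and Rbl1 had the closest neighbours, Hnrnpab at 0.024 and Dcaf1 at 0.025, followed by Elavl1 at 0.042 and Cep44 at 0.036. Trp53 and Rbl1 also varied least, with ranges of 0.73 on that scale, so a close neighbour is easier to find for them. Ccng1, with the widest range of 2.51, was most like Ugcg and Copz2, both at 0.079. Ugcg was at 37.7 and 19.7 CPM in the Elf5-positive libraries, against 90.8, 88.8, 115 and 52.4 CPM in the Elf5-negative ones. Mdm2 was most like Pelo and Tacc1 (0.078 and 0.084), Rb1 like Lekr1 and Grpel2 (0.071 and 0.079), Rbl2 like Gpam and Itpkb (0.12 for each) and Cdkn1a like Slc48a1 and Hilpda (0.11 and 0.13). Cdkn2a was most like Kank3 and Shmt2 (0.10 and 0.13), Cdkn2b like Kif26a and Cnr1 (0.15 and 0.16) and Ccnd1 like Ppp1r35 and Pgls (0.17 and 0.20). No member was among the 2 nearest genes of another member.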

How the data were processed

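Estimated counts per Ensembl gene were deposited by the authors as whole numbers, so rounding changed none. The submitters' processing notes name Salmon and GRCm38.p5. Salmon's version, its annotation and any strand setting were not given in the sources used here. Symbols were matched for 52220 of 52325 IDs. Columns were matched to samples by title, and groups were taken from the genotype label. Genes passing filterByExpr by group (20684) were compared with edgeR 4.0.16 (R 4.3.3), with TMM factors, the quasi-likelihood test and no block, over all 6 libraries. Benjamini-Hochberg adjusted p below 0.05 counted as passed. Standard errors are the log2 fold change over the root of F, and 95% intervals use the fit's degrees of freedom. The common biological coefficient of variation was 0.446, and totals ran from 9106660 to 53694884 counts, so Elf5-negative library 4 gives the least precise values. Coordinates and exon lengths are from GENCODE M21 (GRCm38), matched on IDs without their version number, with a length for 20654 genes tested. Windows of 250 bases before each start are from RefSeq (GRCm38.p6), which had them for 8 of the 10 members. DESeq2 1.42.0, limma 3.58.1 (voom), other scalings, other filters, the title number as a block, thinning to the smallest total and subsets of libraries were alternatives. The members, lists and alternatives were chosen with earlier results of these data known. Besides the members, the genes named are up to 4 of smallest p from each pathway list, all that passed, the 2 nearest patterns of each member, Elf5, Epcam, Col3a1 and Ptprc. Figures were drawn with matplotlib 3.10.9.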

Additional observations from a re-analysis of the deposited data

Results flagged for a closer look

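Dixon's ratio, the distance of the extreme library to its neighbour as a share of the range, was taken for 42 genes over the 4 libraries of Elf5-negative cells. It passed the 95% critical value for 4 genes, which chance alone does in about 1 of 20 groups, and none of the 10 Rb and p53 pathway genes was among them. E2f1 had a ratio of 0.925, with 117 CPM in Elf5-negative library 2 against 80.4 CPM in its neighbour. Cdkn2d had a ratio of 0.897, also from library 2, with 40.3 CPM against 25.2 CPM. Cdkn1b had a ratio of 0.867, with 333 CPM in library 4 against 111 CPM. Lin52 had a ratio of 0.957, from library 4 with 17.2 CPM against 13.5 CPM.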

How the results depend on the processing

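With TMM factors 121 of all genes tested passed as higher and 783 as lower, and none of the 10 members passed. Higher and lower genes numbered 17 and 11697 when scaled to epithelial genes, 43 and 1310 when scaled to E2F targets, 273 and 1331 with no low-count filter, 436 and 1763 with DESeq2, 0 and 0 in the T2 libraries (469 and 1463 at an unadjusted p below 0.05), and 0 and 75 without Elf5-negative libraries 1 and 2. With 1 library left out they ran from 25 to 133 and from 197 to 811. Lower genes were 99.9% of those called when scaled to epithelial genes and 96.8% when scaled to E2F targets, beside 86.6% with TMM. Ccng1 passed, as the only member (1 gene), with library totals, E2F target scaling, no filter, a minimum of 1 CPM, DESeq2, limma-voom and without Elf5-negative library 4. Of all genes tested, 828 of 20684 passed as lower with library totals and 1331 of 35394 with no filter. These were 793 of 15792 with a minimum of 1 CPM and 811 of 20344 without Elf5-negative library 4. Members passing as lower ran from 0 to 1 with 1 library left out, and numbered 9 when scaled to epithelial genes. No alternative called a member higher. The cause was not tested.

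The labels do not say what the number in the titles marks. Over 13769 genes, deviations from the group means correlated between same-numbered libraries at 0.616 and 0.707 for the T2 pairs and at 0.138 and -0.0348 for Elf5-positive libraries with T1 ones. With 2 Elf5-positive libraries these deviations mirror each other, so the correlations are not independent. With the title number as a replicate block 252 of 20684 genes tested passed as higher and 1011 as lower, and 1 member passed as lower (Ccng1, adjusted p = 0.0379 in edgeR). In the T2 libraries with the block 549 of 19395 genes tested passed as higher and 1368 as lower. There 2 members passed as lower, Ccng1 and Ccnd1 (log2 fold change of Ccnd1 -0.94, adjusted p = 0.0287 in edgeR).

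Log2 fold changes changed sign in these cases. Scaled to epithelial genes they were -0.996 for Rb1, -1.19 for Rbl1, -1.21 for Trp53, -0.49 for Cdkn1b, -0.64 for Mcm7, -0.68 for Ccna2, -0.75 for Cdk1, -0.76 for E2f2, -0.79 for Mcm5, -0.79 for Chek2, -0.84 for E2f5, -0.95 for E2f8, -0.96 for Lin9, -0.97 for Chek1, -0.97 for Lin37, -1.001 for E2f1, -1.08 for Lin54, -1.20 for Lin52, -1.23 for Cdk2, -1.27 for Cdk4 and -1.27 for Cdkn2d. Scaled to E2F targets they were -0.10 for Rb1, -0.20 for Rbl1, -0.16 for Trp53, -0.020 for Lin9, -0.17 for Lin54, -0.20 for Cdk2, -0.22 for Lin52, -0.25 for Cdk4 and -0.27 for Cdkn2d. Without Elf5-positive library 2 they were -0.18 for Rb1, 0.037 for Cdkn2a, -0.30 for Lin54, -0.46 for Cdkn1b and 0.14 for Cdkn2c. Cdkn2c, near 0, was also at 0.0083 with RLE factors, 0.0084 with DESeq2, 0.0074 with a minimum of 1 CPM, 0.024 with library totals, 0.064 with limma-voom, 0.011 without Elf5-negative libraries 1 and 2, and 0.18 and 0.040 without Elf5-negative libraries 2 and 4. With 1 library left out, log2 fold changes ran from -0.18 to 0.82 for Rb1, from -0.70 to 0.037 for Cdkn2a, from -0.46 to 1.66 for Cdkn1b and from -0.30 to 0.76 for Lin54. Precision is limited by 2 Elf5-positive libraries and by the depth of Elf5-negative library 4.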
